A study of Mus musculus with 8 samples.

Results

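The levels of 10 tetraspanin genes, namely Cd81, Cd9, Cd37, Cd53, Cd63, Cd82, Cd151, Tspan13, Tspan31 and Tspan32, were measured by RNA sequencing in mouse CD8 T cells with and without a vector for a TOX protein. They were taken by gene symbol from a count table of 31815 genes, and all 10 had a row and passed the filter on low counts that left 13329 genes for testing. The genes were chosen by family, and by the known values of positive against negative cells for each construct, in which Cd81 was high. All cells came from spleens of OT-I mice, C57BL/6-Tg(TcraTcrb)1100Mjb/J, which have a transgenic T cell receptor specific for a peptide of ovalbumin (OVA). The cells were cultured with that peptide for 3 days, received a vector for TOXFL or for TOXdeltaN together with GFP after 24 h, and were sorted on day 5. The 4 groups were TOXFL-positive cells and TOXFL-negative cells, and TOXdeltaN-positive cells and TOXdeltaN-negative cells, with 2 libraries each. Positive cells were the brightest 20% of the GFP-positive cells and negative cells had no GFP, both sorted from cultures that had received the vector. A comparison of positive with negative cells therefore holds the TOX protein, the vector and the sort together, and cells with a GFP-only vector were not analysed here. Nothing in the labels ties the 2 libraries of a group to different mice or cultures, so p-values reflect only how far these libraries vary, part of which may be technical. In such bulk RNA, a change in the number of cells that express a gene and a change in its RNA per cell cannot be told apart.

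Cd81 RNA was higher in cells with either vector, at 16.04 ± 0.588 CPM in GFP-positive and 7.17 ± 0.858 CPM in GFP-negative cells (SD, n = 4 libraries each). Cd53, the most abundant of the 10, was slightly lower in every positive library, and the levels of Cd9, Cd151 and Tspan13 overlapped between positive and negative cells of both constructs.

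Tetraspanins are small proteins that cross the membrane 4 times and gather partner receptors, integrins and enzymes into membrane patches. CD81 is found on B cells and also acts as a costimulatory molecule on T cells. CD37, CD53 and TSPAN32 are found mainly on cells of the blood lineage, CD151 binds laminin-binding integrins, and CD63 cycles through late endosomes, lysosomes and released vesicles. TOX is an HMG-box nuclear factor that binds DNA, and TOXFL and TOXdeltaN are 2 proteins made from its gene.

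The promoters of Cd81, of its chromosome neighbour Tspan32, and of Cd9 and Cd53 are shown because the RNA of these 4 genes differed in pattern. Each sequence runs 5′ to 3′ from 250 bases before to 50 bases after the RefSeq start on GRCm38.p6. Capitals mark matches, on either strand, to TATAAA, the core promoter box of that name, to GGGCGG, the box that SP factors recognise, to TGANTCA, the site form known for AP-1 factors, to CCAAT, the element known for NF-Y binding, and to CACGTG, the palindromic E-box of MYC-type factors, and a match on the other strand appears as its reverse complement.
Cd81 (chr7:143052500-143052799, plus strand): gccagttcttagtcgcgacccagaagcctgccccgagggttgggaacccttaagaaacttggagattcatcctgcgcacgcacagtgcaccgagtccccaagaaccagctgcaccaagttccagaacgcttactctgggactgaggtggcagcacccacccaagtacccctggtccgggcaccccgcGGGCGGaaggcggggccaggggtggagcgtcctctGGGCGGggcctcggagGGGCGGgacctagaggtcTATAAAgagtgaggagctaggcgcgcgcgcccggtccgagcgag
Tspan32 (chr7:143004796-143005095, plus strand): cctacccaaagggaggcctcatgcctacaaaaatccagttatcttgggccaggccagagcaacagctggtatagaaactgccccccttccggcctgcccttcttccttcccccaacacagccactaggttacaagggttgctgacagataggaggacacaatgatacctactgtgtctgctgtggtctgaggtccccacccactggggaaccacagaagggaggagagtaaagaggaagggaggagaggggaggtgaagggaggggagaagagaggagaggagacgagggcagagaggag
Cd9 (chr6:125494711-125495010, minus strand): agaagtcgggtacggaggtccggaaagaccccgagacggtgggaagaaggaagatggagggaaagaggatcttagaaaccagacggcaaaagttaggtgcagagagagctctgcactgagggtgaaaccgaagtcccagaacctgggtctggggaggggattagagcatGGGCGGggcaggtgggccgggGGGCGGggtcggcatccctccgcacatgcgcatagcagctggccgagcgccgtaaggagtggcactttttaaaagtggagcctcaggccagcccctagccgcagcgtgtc
Cd53 (chr3:106790100-106790399, minus strand): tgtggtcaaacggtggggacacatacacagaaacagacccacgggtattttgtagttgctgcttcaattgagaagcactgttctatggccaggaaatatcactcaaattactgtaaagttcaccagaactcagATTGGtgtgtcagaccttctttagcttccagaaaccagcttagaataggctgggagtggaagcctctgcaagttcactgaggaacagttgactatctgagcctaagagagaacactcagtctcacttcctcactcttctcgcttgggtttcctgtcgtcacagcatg
The Cd81 window held GGGCGG 3 times, starting at -63, -28 and -12 relative to the transcription start. It also held TATAAA once, at position 7, which is after that start and not before it. Its GC content was 65.7%, with 23 CpG dinucleotides. The Cd9 window held GGGCGG 2 times and the Cd53 window held 1 CCAAT on the other strand. None of the 5 motifs was in the Tspan32 window. Of 32851 promoter windows of the same length, 35.7% held GGGCGG, 37.4% held CCAAT, 13.6% held TATAAA, 7.81% held TGANTCA and 7.15% held CACGTG. The motif letters do not overlap each other in these windows, and a match is a description of the sequence and not of a bound factor. All 10 genes had an entry in the RefSeq promoter table.

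Total counts lay between 25059112 and 31240067 per library. Tox RNA, which the vector adds to, was 105 and 126 CPM (counts scaled to 1e6 per library) in TOXFL-positive cells, against 25.1 and 34.4 CPM in TOXFL-negative cells. It was 107 and 82.9 CPM in TOXdeltaN-positive cells and 21.8 and 32.2 CPM in TOXdeltaN-negative cells. The share of counts from mitochondrial genes was 0.450% to 0.798% in the positive libraries and 0.832% to 0.909% in the negative libraries. It was lowest in replicate 2 of the TOXFL-positive group, and its part in the results was not tested. Summed over 8 CD8 T cell markers, CPM ranged from 4594 to 5115 over all libraries.

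Between genes, levels are compared as CPM per kilobase of exon, since longer transcripts give more reads. Cd53 had the highest level, with a mean over the 8 libraries of 351 CPM per kb and a range of 314 to 381. Tspan13 followed at 84.0 CPM per kb, ranging from 78.0 to 89.6. Cd37, Tspan31, Cd9 and Cd82 came next at 43.7, 41.8, 37.8 and 36.6 CPM per kb, and the library ranges of each pair of neighbours among them overlapped. Tspan32 at 4.28 and Cd81 at 4.03 CPM per kb lay lower by an order of magnitude, followed by Cd151 at 1.44 and Cd63 at 0.288 CPM per kb. Outside the overlapping run of Cd37 to Cd82 and the pair of Tspan32 and Cd81, the ranges of neighbours in this order did not overlap.

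The order of Cd81 and Tspan32 in CPM per kb of exon differed with GFP status. Cd81 had 5.76 and 5.33 CPM per kb in TOXFL-positive cells and 2.23 and 2.24 CPM per kb in TOXFL-negative cells. Tspan32 had 4.25 and 3.99 CPM per kb in TOXFL-positive cells and 4.82 and 3.85 CPM per kb in TOXFL-negative cells. Cd81 thus lay above Tspan32 in both positive libraries and below it in both negative ones, and the order was the same in the TOXdeltaN libraries. There Cd81 had 5.47 and 5.72 CPM per kb in positive cells and 2.75 and 2.75 CPM per kb in negative cells. Tspan32 had 4.01 and 3.83 CPM per kb in TOXdeltaN-positive cells and 4.90 and 4.58 CPM per kb in TOXdeltaN-negative cells. This change of order depends on the length used, all annotated exons merged, which is 2.879 kb for Cd81 and 6.234 kb for Tspan32. The length of the transcripts expressed in these cells was not measured. In CPM, Tspan32 at 23.86 to 30.52 lay above Cd81 at 6.41 to 16.58 in every library. Shares of the summed CPM per kb of the family cover 29 of 31 tetraspanin genes, those with a merged exon length. Tspan4, at a mean of 38.5 CPM, and Tspan9 had no length and were left out. Cd53 made 50.6% of this sum in TOXFL-positive cells and 55.0% in TOXFL-negative cells. The Cd81 share was 0.873% in TOXFL-positive cells and 0.333% in TOXFL-negative cells, and 0.862% in TOXdeltaN-positive cells and 0.397% in TOXdeltaN-negative cells.

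**Figure D1:**
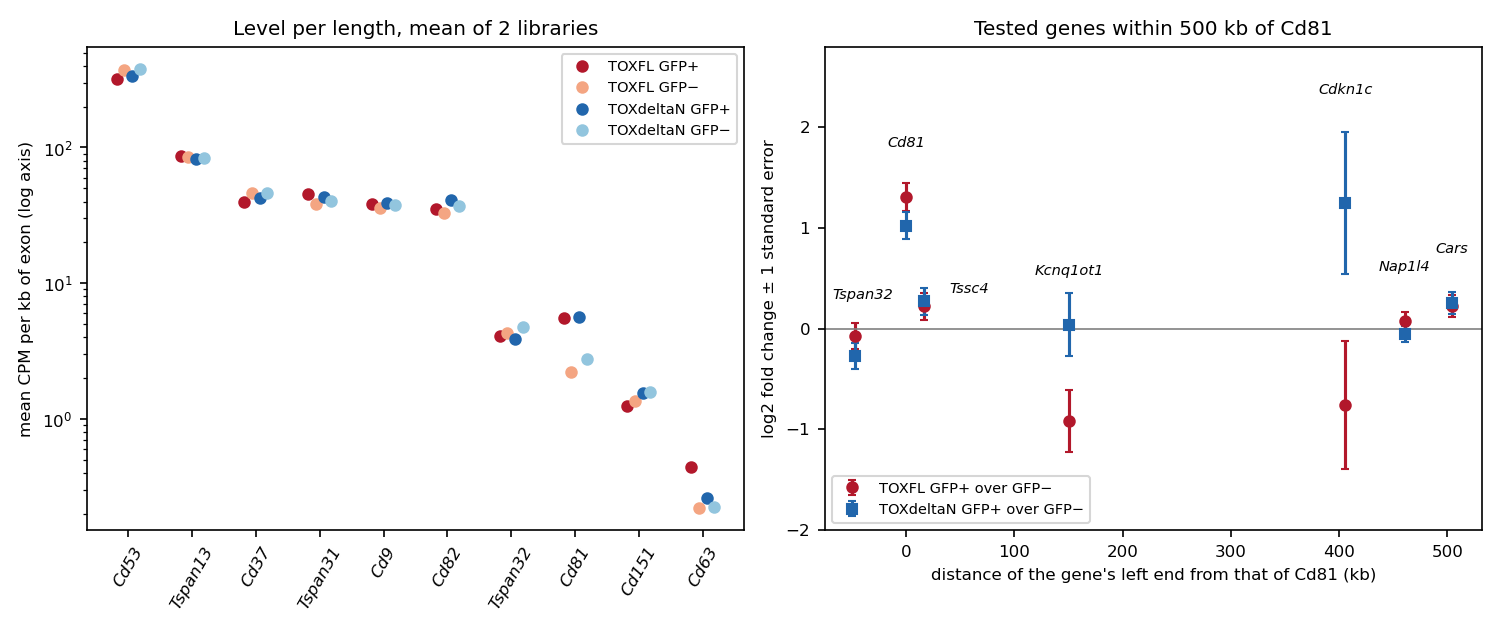
Left, mean level of each tetraspanin gene per group in CPM per kb of exon on a log axis, with each point the mean of 2 libraries. Right, log2 fold change of GFP-positive over GFP-negative cells, with 1 standard error, by the distance in kb between left ends. The 7 genes shown are the tested ones within 500 kb of Cd81, with Cd81 included. Per kb of exon, Cd81 lies above Tspan32 in both positive groups and below it in both negative groups, while in CPM it lies below Tspan32 throughout. Cd81 has log2 values of 1.31 and 1.03 beside -0.07 and -0.27 for Tspan32.

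Cd81 (ENSMUSG00000037706.17) lies on chromosome 7 at 143052739 to 143067934 of GRCm38, on the plus strand. It had 16.6 and 15.4 CPM in TOXFL-positive cells, against 6.41 and 6.45 CPM in TOXFL-negative cells. In the TOXdeltaN cultures it had 15.8 and 16.5 CPM in positive cells and 7.90 and 7.92 CPM in negative cells. All 4 positive libraries lay above all 4 negative libraries, with means of 16.04 ± 0.588 CPM and 7.17 ± 0.858 CPM (SD, n = 4 each). These levels rest on 412 to 490 counts in positive libraries and 172 to 236 counts in negative libraries. The exact Poisson 95% interval of the lowest positive library began at 14.02 CPM and that of the highest negative library ended at 9.00 CPM. Such intervals cover counting error only.

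The fitted fold of Cd81 was 2.48 with TOXFL (log2 1.31, SE 0.14) and 2.03 with TOXdeltaN (log2 1.03, SE 0.14). The gene was chosen with these contrasts known, so they are given as a description. Cd81 had the smallest spread within groups among the 10 genes, an SD of 0.046 on the log2 CPM scale, and a range of 1.37 over the 8 libraries. This spread is not a measure of precision, because counting error is wider. The TOXFL-negative replicates had 6.41 and 6.45 CPM, while the exact Poisson interval of the 6.41 CPM library alone ran from 5.49 to 7.445 CPM. Ordered from the highest log2 fold change over all 13329 tested genes, Cd81 stood at place 215 with TOXFL, 349 with TOXdeltaN and 189 in the average of both. Among the 9054 genes with a mean of at least 8 CPM, it stood at places 5, 10 and 7. All these places come from the contrasts that chose it. The antisense-strand gene R74862, which shares 104 bp with Cd81 exons, had 0.0628 to 0.298 CPM in any library. The kit does not mark strand, so reads of overlapping genes cannot be told apart.

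**Figure D2:**
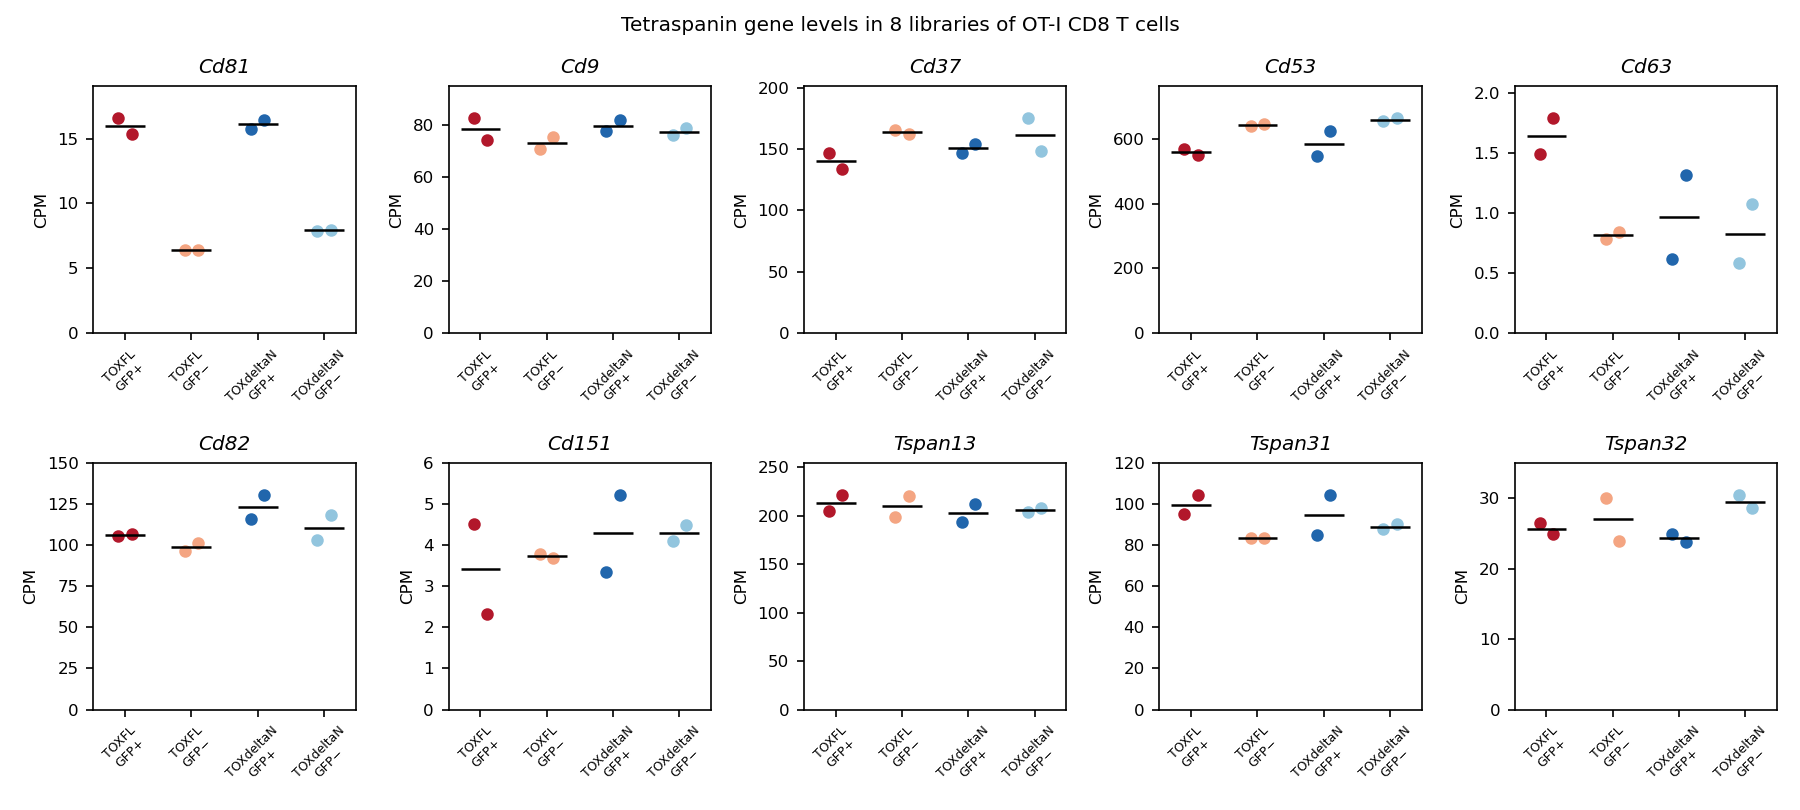
CPM of the 10 tetraspanin genes in each library, with axes from 0, 2 points per group and a line at the mean. Cd81 is 15.4 to 16.6 CPM in the 4 GFP-positive libraries and 6.41 to 7.92 CPM in the 4 GFP-negative libraries, and Cd53 is the gene with all positive libraries below all negative ones.

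Cd81 and Cd9 are known to share the immunoglobulin-family partners Igsf8 and Ptgfrn, and Cd9 is required for fusion of sperm and egg in mice. Cd9 had 82.6 and 74.4 CPM in TOXFL-positive cells, against 71.0 and 75.4 CPM in TOXFL-negative cells. It had 77.6 and 81.8 CPM in TOXdeltaN-positive cells, against 76.2 and 78.8 CPM in TOXdeltaN-negative cells. The groups of both constructs overlapped, with log2 values of 0.10 and 0.04. Cd9 shares 90.7% identity over 664 bp with a pseudogene copy that was not analysed here, so its counts are uncertain to that extent.

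Cd63 was the least abundant of the 10 genes, with 17 to 57 counts per library. It had 1.49 and 1.79 CPM in TOXFL-positive cells, against 0.783 and 0.845 CPM in TOXFL-negative cells. In the TOXdeltaN cultures it had 0.615 and 1.32 CPM in positive cells and 0.582 and 1.07 CPM in negative cells. The TOXFL groups stood apart and the TOXdeltaN groups overlapped, with replicate 2 above replicate 1 in both. The log2 fold changes were 1.01 (SE 0.52) with TOXFL and 0.21 (SE 0.53) with TOXdeltaN. A pseudogene copy with 98.0% identity over 858 bp was not analysed here, so the Cd63 values are uncertain.

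Cd53, a leukocyte tetraspanin that takes part in lymphocyte adhesion and homing, was the most abundant. It had 570 and 550.0 CPM in TOXFL-positive cells, against 639 and 646 CPM in TOXFL-negative cells. It had 546 and 623 CPM in TOXdeltaN-positive cells, against 656 and 664 CPM in TOXdeltaN-negative cells. All 4 positive libraries lay below all 4 negative libraries, with means of 572 ± 35.4 CPM and 651 ± 10.8 CPM (SD, n = 4 each). The log2 fold changes were -0.20 with TOXFL and -0.17 with TOXdeltaN. Cd53 was therefore the only one of the 10 with complete separation of the 4 and 4 libraries in the direction opposite to Cd81.

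Cd37, which restrains T cell proliferation in mice, had 147 and 134 CPM in TOXFL-positive cells and 166 and 162 CPM in TOXFL-negative cells. It had 147 and 154 CPM in TOXdeltaN-positive cells and 175 and 148 CPM in TOXdeltaN-negative cells. The TOXFL-positive libraries were the lower ones and the TOXdeltaN groups overlapped, with log2 values of -0.22 and -0.10. Tspan32, a tetraspanin of the blood lineage with a similar restraining role in mice, had 26.5 and 24.9 CPM in TOXFL-positive cells and 30.1 and 24.0 CPM in TOXFL-negative cells. It had 24.98 and 23.86 CPM in TOXdeltaN-positive cells and 30.5 and 28.6 CPM in TOXdeltaN-negative cells. Here the TOXdeltaN groups stood apart, with the positive libraries lower, and the TOXFL groups overlapped, with log2 values of -0.07 for TOXFL and -0.27 for TOXdeltaN.

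Cd82, known as a suppressor of metastasis, had 106 and 107 CPM in TOXFL-positive cells and 96.7 and 102 CPM in TOXFL-negative cells. It had 116 and 131 CPM in TOXdeltaN-positive cells and 103 and 119 CPM in TOXdeltaN-negative cells. The TOXFL-positive libraries were higher by a small margin and the TOXdeltaN groups overlapped, with log2 values of 0.10 and 0.16. Cd151 had 4.53 and 2.32 CPM in TOXFL-positive cells and 3.80 and 3.70 CPM in TOXFL-negative cells. It had 3.35 and 5.24 CPM in TOXdeltaN-positive cells and 4.11 and 4.50 CPM in TOXdeltaN-negative cells. The Cd151 replicates of the positive groups lay farther apart than the group means did, and its log2 values were -0.13 and -0.01.

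Tspan13 was the most even of the abundant genes over the groups. It had 204 and 222 CPM in TOXFL-positive cells and 199 and 221 CPM in TOXFL-negative cells. It had 193 and 212 CPM in TOXdeltaN-positive cells and 204 and 208 CPM in TOXdeltaN-negative cells. Both pairs of groups overlapped, with log2 values of 0.02 and -0.02. Tspan31, whose human counterpart is amplified with CDK4 in sarcomas, had 95.02 and 104.4 CPM in TOXFL-positive cells and 83.7 and 83.4 CPM in TOXFL-negative cells. It had 85.1 and 105 CPM in TOXdeltaN-positive cells and 87.7 and 90.2 CPM in TOXdeltaN-negative cells. The TOXFL groups stood apart and the TOXdeltaN groups overlapped, with log2 values of 0.26 and 0.09.

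Tspan31 lies on the opposite strand to Cdk4, and 641 bp, or 29.2% of its exons, overlap Cdk4 exons. Cdk4 had 322 to 453 CPM over the libraries. Its log2 fold change in the average of both constructs was 0.22, with an adjusted p of 0.118 in edgeR's quasi-likelihood test and 0.0288 with the replicate number as a block. Reads of the shared bases cannot be assigned by strand, and their part in the Tspan31 values was not tested.

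**Figure D3:**
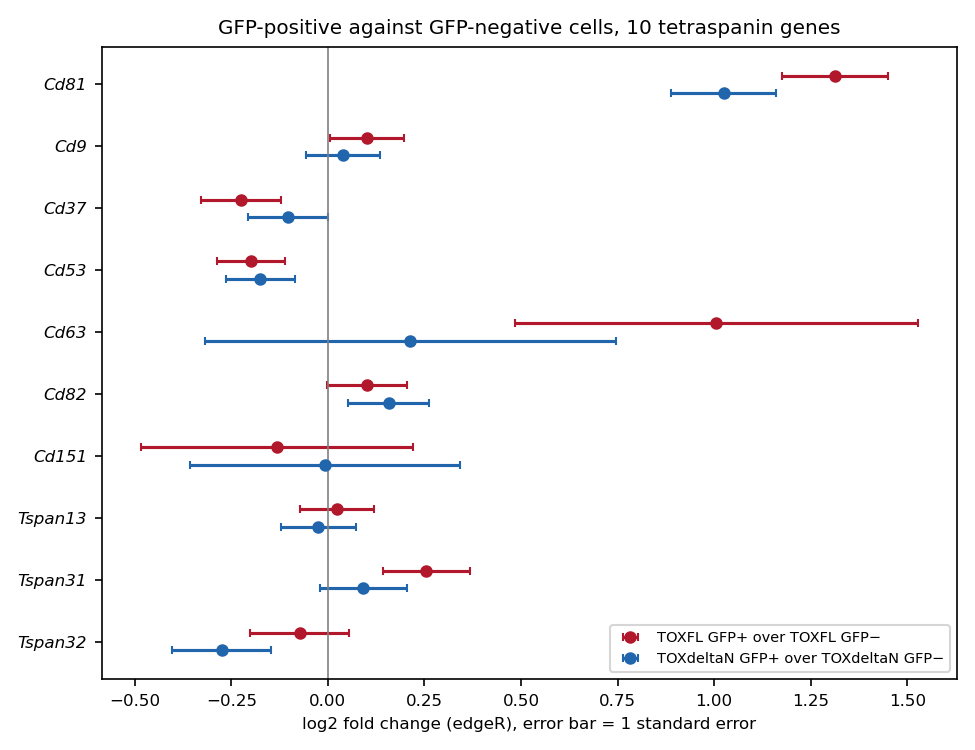
Log2 fold change of GFP-positive over GFP-negative cells for the 10 tetraspanin genes, with red for TOXFL and blue for TOXdeltaN and bars of 1 standard error. Cd81 stands at 1.31 and 1.03 with short bars, Cd63 has a similar TOXFL value of 1.01 with an SE of 0.52, and the other 8 genes lie between -0.27 and 0.26.

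A gene was counted as called when its p, adjusted over all tested genes in edgeR's quasi-likelihood test, was under 0.05. With TOXFL, 1 of the 10 genes was called, Cd81, where 0.045% of all tested genes were called. With TOXdeltaN 0 of the 10 were called, where 0.03% of all genes were called. There, 1 of the 10 was under 0.05 unadjusted, and 1, Cd81, was called by DESeq2 and 0 by limma-voom. In the average of both constructs 1 was called, again Cd81, where 2.42% of all genes were called. With the replicate number as a block, Cd81 was called in each of the 3 comparisons, where the share of all genes called was 3.48%, 1.65% and 12.7%. Since these contrasts chose the genes, nothing is read from the counts.

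Leaving out 1 library changed some of these counts. The TOXFL call of Cd81 was lost without either TOXFL-negative library, without TOXFL-positive replicate 2, and without either TOXdeltaN-negative library, while its log2 value stayed between 1.25 and 1.37. With the block it was kept in all 8 such fits. Without TOXdeltaN-positive replicate 1 the average comparison called Tspan31 as well as Cd81, and without TOXdeltaN-positive replicate 2 it called Cd53 as well. With the block and without either of these libraries, Cd37, Cd53 and Tspan31 were called with Cd81 in the TOXFL comparison.

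By groups that did not overlap, 4 of the 10 genes were higher and 2 lower with TOXFL, where 24.9% and 25.5% of all genes were. With TOXdeltaN 1 was higher and 2 were lower, where 21.1% and 20.8% of all genes were. With all 4 positive against all 4 negative libraries, Cd81 was higher and Cd53 lower, where 8.22% and 8.08% of all genes were. The median log2 fold change of the 10 genes was 0.06 with TOXFL and 0.02 with TOXdeltaN, beside -0.003 and 0.005 over all tested genes. Apart from Cd81 and Cd63, the other 8 genes had log2 values between -0.27 and 0.26 with both constructs.

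Whether the constructs differed was tested as the difference between the 2 GFP comparisons. Since both were known when the genes were chosen, this test is not independent of the choice. The Cd81 effect of TOXFL minus that of TOXdeltaN was 0.29 on the log2 scale (SE 0.19), with an unadjusted p of 0.167 and an adjusted p of 1.0 in edgeR. For Cd63 the difference was 0.79 (SE 0.74), with an unadjusted p of 0.314 and an adjusted p of 1.0. None of the 10 genes passed, 0 were under 0.05 unadjusted, and DESeq2 and limma-voom also called 0. Of all tested genes 0.0% passed in edgeR, with 318 under 0.05 unadjusted, while DESeq2 called 7 and limma-voom 0. That none of the 10 passed does not show that the constructs acted alike on them.

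Between TOXFL-positive and TOXdeltaN-positive cells, the Cd81 levels above differed by a log2 value of -0.01 (SE 0.13), with an adjusted p of 0.992 in edgeR. The smallest adjusted p among the 10 genes was 0.822, for Cd63 and Cd82. Cd63 was higher in both TOXFL-positive libraries than in both TOXdeltaN-positive ones (log2 0.77, SE 0.52), while Cd82 was lower (log2 -0.22, SE 0.10) and Cd37 lower by a narrow margin. Of all genes 15.9% were higher and 16.1% lower by groups that did not overlap, and 0.0% were called in edgeR, where 768 were under 0.05 unadjusted and DESeq2 called 19. None of the 10 was under 0.05 unadjusted, and DESeq2 and limma-voom called 0 of them.

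Between TOXFL-negative and TOXdeltaN-negative cells, Cd81 was at 6.41 and 6.45 CPM against 7.90 and 7.92 CPM. The groups differed by a log2 value of -0.30 (SE 0.14), with an unadjusted p of 0.058 and an adjusted p of 0.9996 in edgeR. The replicates of each group lay closer together than their counting error, so their closeness is no measure of this difference. The exact Poisson intervals ended at 7.445 and 7.449 CPM in TOXFL-negative cells and began at 6.918 and 6.945 CPM in TOXdeltaN-negative cells. The intervals of the groups therefore overlapped. In total 6 of the 10 genes, Cd81, Cd9, Cd53, Cd82, Cd151 and Tspan31, were lower in both TOXFL-negative libraries, where 16.6% of all genes were, and 0 were higher, where 16.8% were. None passed the test or was under 0.05 unadjusted, DESeq2 and limma-voom called 0 of the 10, and 0.0% of all genes were called in edgeR, where 328 were under 0.05 unadjusted and DESeq2 called 8. These contrasts use the same libraries as the GFP comparisons, so the lower Cd81 level in TOXFL-negative cells also enters its TOXFL fold.

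Markers of other cell types that express tetraspanins were measured beside these values. The summed CPM of 12 myeloid and dendritic markers was 112 to 115 in TOXFL-positive and 120 to 146 in TOXdeltaN-positive cells, against 99.6 to 101 in TOXFL-negative and 98.0 to 110 in TOXdeltaN-negative cells. Most of it was Cst3, at up to 125 CPM, a gene that many cell types express. H2-Ab1, which encodes a chain of MHC class II, had 13.4 and 11.6 CPM in TOXFL-positive cells against 9.13 and 9.02 CPM in TOXFL-negative cells, and 11.6 and 16.2 CPM in TOXdeltaN-positive cells against 8.56 and 10.2 CPM in TOXdeltaN-negative cells. Cst3 and H2-Ab1 were thus higher in all 4 positive libraries than in all 4 negative ones, as Cd81 was, and their part in the Cd81 values was not tested. Cd68, Itgam and Itgax reached at most 3.01, 2.04 and 1.62 CPM, and their levels overlapped between positive and negative libraries. Of the other 7 markers, H2-Eb1 reached 0.799 CPM, H2-Aa 0.342, Fcer1g 0.282, Cd14 0.200, Csf1r 0.0684 and Lyz2 0.0373 CPM, and Adgre1 was at 0 in all libraries. The 9 B cell markers summed to 14.2 to 16.7 CPM in positive and 16.6 to 17.7 CPM in negative libraries, nearly all of it Cd79b. Pax5 was at 0 in all 8 libraries. Of 7 markers listed for CD4, NK and gamma-delta T cells, 5 had a row, and these summed to 2.56 to 7.22 CPM. The gamma-delta markers, Trdc and Tcrg-C1, had no row, so gamma-delta T cells were not measured. Platelet markers summed to 0.403 to 0.752 CPM and erythroid markers to 0.135 to 4.34 CPM. Cd4 itself had 21 to 36 counts in the replicate 1 libraries and 0 to 1 in the replicate 2 libraries. What this difference between replicate numbers reflects was not tested.

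The rest of the family held 23 further genes, of which 21 had a row and 11 were tested. In the average of both constructs 0 of the 11 were called by edgeR, DESeq2 or limma-voom, where 2.42% of all genes were called, and 3 were under 0.05 unadjusted. Their median log2 fold change was -0.05, beside -0.0005 over all tested genes. With the replicate block 1 was called, Tspan3, known to be present in many tissues. Tspan3 had 32.9 and 38.1 CPM in TOXFL-positive cells against 27.7 and 28.8 CPM in TOXFL-negative cells, and 31.8 and 40.0 CPM in TOXdeltaN-positive cells against 29.9 and 28.7 CPM in TOXdeltaN-negative cells. All 4 positive libraries lay above all 4 negative ones, with a log2 value of 0.31 and an adjusted p of 0.106 without and 0.0370 with the block.

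The other family genes of highest mean CPM, not divided by length, gave smaller values. Tspan14, one of the tetraspanins that guide the protease ADAM10 to the surface, had a log2 value of -0.20 (adjusted p 0.163 in edgeR) and a mean of 73.5 CPM. Tspan5, which belongs to the same subgroup, had -0.05 (adjusted p 0.813), and Tspan4 had -0.12 (adjusted p 0.331). The highest log2 value of the 11 was that of Tspan6 at 0.62 (adjusted p 0.127), named after its values were seen. Adam10 RNA itself differed by -0.11 (adjusted p 0.502).

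Known partners of tetraspanins were described from a list of 37 genes, of which 32 were tested. In the average of both constructs edgeR called 1 higher and 2 lower, where 1.34% and 1.08% of all genes were, and the median log2 fold change was -0.07. Itga6, the alpha chain of a laminin-binding integrin that associates with CD151, was lower. It had 102 and 102 CPM in TOXFL-positive cells against 134 and 128 CPM in TOXFL-negative cells, and 94.1 and 77.3 CPM in TOXdeltaN-positive cells against 135 and 126 CPM in TOXdeltaN-negative cells. All 4 positive libraries were below all 4 negative ones, with a log2 value of -0.48 (SE 0.08) and an adjusted p of 0.0222.

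Samhd1, a nucleotide-hydrolysing enzyme reported to bind CD81 in human cells, was 518 and 490 CPM in TOXFL-positive and 504 and 452 CPM in TOXdeltaN-positive cells. It was 765 and 638 CPM in TOXFL-negative and 703 and 608 CPM in TOXdeltaN-negative cells. The positive libraries were again all lower, with a log2 value of -0.47 (SE 0.08) and an adjusted p of 0.0257. Zdhhc2, a palmitoyl transferase that modifies CD9 and CD151, moved the other way. It was 45.4 and 47.6 CPM in TOXFL-positive and 46.0 and 46.5 CPM in TOXdeltaN-positive cells, against 33.6 and 37.2 CPM in TOXFL-negative and 37.0 and 36.5 CPM in TOXdeltaN-negative cells. Its log2 value was 0.36 (SE 0.07), with an adjusted p of 0.0339.

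The partner calls depended on single libraries. All 3 were lost without TOXFL-negative replicate 1, without either TOXFL-positive library or without either TOXdeltaN-negative library, and without TOXFL-negative replicate 2 the calls of Itga6 and Zdhhc2 were lost. Without TOXdeltaN-positive replicate 1, 8 partners were called. With the replicate block 6 of the 32 were called, where 12.7% of all genes were. They added Itga4 (log2 -0.48, adjusted p 0.00215), Cd8b1 (log2 -0.31, adjusted p 0.00611) and Cd44 (log2 0.33, adjusted p 0.00725), whose adjusted p without the block were 0.160, 0.0976 and 0.0855. Itga4 encodes an integrin alpha chain for VCAM-1, Cd8b1 the beta chain of CD8, and Cd44 a hyaluronan receptor.

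The partners best known for binding CD81 and CD9 directly were not called. Igsf8 had a log2 value of 0.20 (adjusted p 0.330) and Ptgfrn one of -0.11 (adjusted p 0.889). The most abundant partners were Itgb7 (log2 -0.16, adjusted p 0.538), Cd3e (log2 -0.09, adjusted p 0.421) and Cd8a (log2 0.08, adjusted p 0.441) together with Cd8b1. Igsf8 and Ptgfrn were named for this known binding after their values were seen.

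The list of 21 vesicle, late endosome and lysosome genes, the compartments of CD63, held 19 tested genes. In the average of both constructs 1 was called higher and 0 lower, where 1.34% and 1.08% of all genes were, and the median log2 fold change was -0.08. The called gene was Rab27a, a small GTPase that docks secretory lysosomes and lytic granules. It had 52.9 and 60.7 CPM in TOXFL-positive cells against 36.8 and 40.4 CPM in TOXFL-negative cells, and 47.7 and 45.6 CPM in TOXdeltaN-positive cells against 38.7 and 41.5 CPM in TOXdeltaN-negative cells. All 4 positive libraries were above all 4 negative ones, with a log2 value of 0.39 (SE 0.08) and an adjusted p of 0.0382.

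The Rab27a call was lost without any 1 of the TOXFL-negative, TOXFL-positive or TOXdeltaN-negative libraries, and 3 genes of the list were called without TOXdeltaN-positive replicate 1. The 4 most abundant genes of the list gave values near 0. They were Pdcd6ip, which encodes the vesicle factor ALIX (log2 -0.08), Lamp1, a lysosomal membrane protein (log2 0.08), Rab7, a GTPase of late endosomes (log2 -0.02), and Ap3b1, a subunit of an adaptor complex for sorting to lysosomes (log2 -0.05). Their adjusted p were 0.545, 0.440, 0.863 and 0.734.

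**Figure D4:**
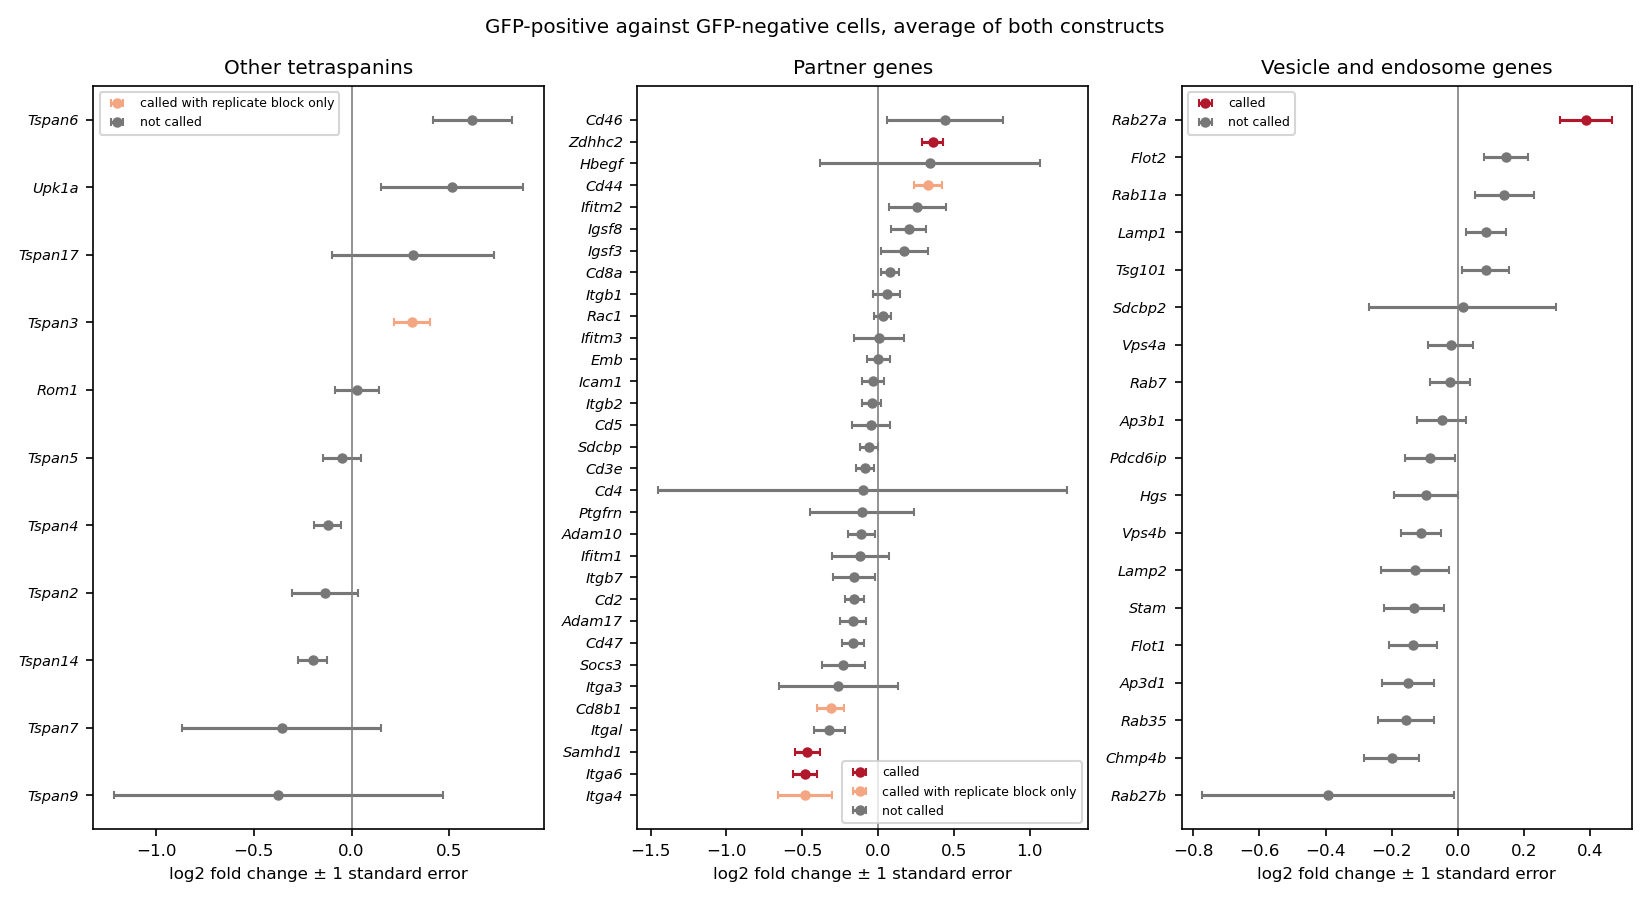
Log2 fold change of GFP-positive over GFP-negative cells in the average of both constructs, with bars of 1 standard error, for the tested genes of the other tetraspanins (11), the partners (32) and the vesicle and endosome list (19). Red marks genes called in edgeR, orange those called with the replicate block only, and grey the rest, with Itga6 at -0.48, Samhd1 at -0.47, Zdhhc2 at 0.36 and Rab27a at 0.39 in red.

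The genes whose pattern over the 8 libraries was most like that of Cd81 were sought among 9053 other tested genes with a mean of at least 8 CPM. Likeness was the root-mean-square difference of log2 CPM after each gene was centred on its mean. Car2, which encodes a carbonic anhydrase, was nearest with a difference of 0.163. It had 12.6 and 15.3 CPM in TOXFL-positive cells against 5.85 and 6.13 CPM in TOXFL-negative cells, and 11.2 and 14.4 CPM in TOXdeltaN-positive cells against 6.74 and 7.99 CPM in TOXdeltaN-negative cells. Like Cd81, it was higher in all 4 positive libraries. Prr5, a component of the kinase complex mTORC2, followed at 0.219, the Myc-related gene Bmyc at 0.230, the spindle gene Psrc1 at 0.240 and the AP-1 repressor Jdp2 at 0.242. All 8 libraries entered, and since genes were picked for likeness, the values are a description.

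Cd81 lies in an imprinted region, and its nearest tested neighbour before it is Tspan32, whose end is 33094 bp before the Cd81 start. Of 27 genes of the table within 500 kb, a number that includes Cd81, 7 were tested, again with Cd81, and 10 had no count in any library. Tssc4, the next tested gene after Cd81, had 41.8 and 44.9 CPM in TOXFL-positive cells against 37.8 and 36.3 CPM in TOXFL-negative cells, and 38.5 and 48.5 CPM in TOXdeltaN-positive cells against 32.9 and 38.9 CPM in TOXdeltaN-negative cells. Its log2 value in the average of both constructs was 0.25 (adjusted p 0.172 in edgeR), beside 1.17 for Cd81 and -0.17 for Tspan32. Cars, which encodes a cysteine tRNA synthetase, had 0.24 (adjusted p 0.116, and 0.0385 with the block), and Nap1l4, a histone chaperone gene, 0.02 (adjusted p 0.908). The imprinted noncoding RNA Kcnq1ot1 was at 52.4 CPM in TOXFL-negative replicate 1 and between 18.8 and 25.3 CPM elsewhere, so its TOXFL value of -0.91 rests on that library. Cdkn1c was at most 0.564 CPM in every library. Among the tested genes of the region, Cd81 had the highest log2 value in the TOXFL comparison, and Cdkn1c had a higher one with TOXdeltaN, 1.25 with an SE of 0.71.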

How the data were processed

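RNA was measured in 8 libraries, made per the labels from 8 ng of total RNA with SMART-Seq v4 and Nextera XT. The values the authors deposited are RSEM expected counts per gene, in whole numbers and not normalised. The submitters' processing notes name bcl2fastq 2.20, cutadapt, STAR 2.6.1, RSEM 1.2.28 and GRCm38, and the annotation release is not given in the sources used here. Of 31907 rows, 92 spike-in rows were left out. Positions come from GENCODE M21, which 31748 gene IDs matched without version.

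The count analysis used edgeR 4.0.16 in R 4.3.3: filterByExpr by group, TMM scaling (factors 0.989 to 1.02), a quasi-likelihood F-test on group means over all libraries, and Benjamini-Hochberg adjustment over 13329 genes at 0.05. The fit was tested on simulated data. Alternatives were a replicate block, DESeq2 1.42.0, limma-voom (limma 3.58.1), RLE scaling, no filter, only the groups compared, and leaving out each library. The members and lists were chosen with earlier results of these data known. Named were all members, listed genes called in any contrast with or without the block, up to 4 a list of the highest mean CPM, and the 5 genes most like Cd81 (pseudocount 0.5 CPM).

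The labels number the libraries 1 and 2 in each group. Same-numbered libraries deviated together from the group means, at a correlation of 0.260 to 0.346 across genes in all 6 pairs of groups. The pairing therefore rests on the data, not on a label.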

Additional observations from a re-analysis of the deposited data

How the results depend on the processing

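The Cd81 log2 values and their difference between constructs kept their direction in the settings tried. Counts of calls have no direction, and several of them moved. Members called with TOXFL, 1, became 0 in the fit of these groups alone and 0 to 1 when 1 library was left out. With TOXdeltaN, 0 became 1 with the replicate block, with DESeq2 and without a filter, and 0 to 1 when 1 library was left out. In the average of both constructs, 1 was 1 to 2 when 1 library was left out. Other tetraspanins, 0, became 1 with the replicate block and without a filter, and 0 to 1 when 1 library was left out. Partners, 3, became 6 with the replicate block, 7 with DESeq2 and 7 without a filter, and 0 to 8 when 1 library was left out. Vesicle and endosome genes, 1, were 0 to 3 when 1 library was left out.

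The replicate block together with leaving out 1 library was chosen after seeing the data. It gave 1 to 4 members with TOXFL, 0 to 2 with TOXdeltaN and 1 to 3 in the average, 0 to 2 other tetraspanins, 3 to 12 partners and 0 to 5 vesicle genes. The Cd81 log2 value lay between 1.25 and 1.37 with TOXFL when 1 library was left out, between 1.24 and 1.38 with the block as well, and between 0.97 and 1.07 with TOXdeltaN with the block as well. Its difference between constructs, 0.29, was 0.29 with the replicate block and did not pass in any fit. In the fit of all 8 libraries, the block changed no call of the 10 genes other than that of Cd81 with TOXdeltaN. Where a comparison is left with 1 library in a group, that library is assumed to vary like the others. The cause of these shifts was not tested. Depth limits Cd63 most, at 17 to 57 counts per library.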
